A study of Mus musculus with 6 samples.

Results

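The transcripts described here are 10 genes of channels opened by protons or by mechanical force, and of proteins proposed for mechanosensation, in dorsal root ganglia of mice with an inducible deletion of Scn9a. They were chosen by name, as the rows of each library that carry the NCBI mouse gene identifiers of Asic1, Asic2, Asic3, Asic4, Piezo1, Piezo2, Tmem63a, Tmem63b, Tmem120a and Tmem150c. The files list 36528 genes, and all 10 passed the filter on low counts together with the other genes that made up the 22043 tested. The knockout group was 3 mice homozygous for loxP-flanked Scn9a and positive for pCAAG.Cre.ER (CreER-positive). The control group was 3 littermates with the same floxed alleles and no CreER (CreER-negative). All animals were females between 12 and 18 weeks of age, and each library came from the 6 pooled lumbar ganglia of 1 mouse. Scn9a encodes the sodium channel Nav1.7, and the series title calls the deletion global. CreER is a Cre recombinase activated by tamoxifen, and the labels give no tamoxifen schedule.

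Acid-sensing ion channels (ASICs) are sodium channels of the degenerin and epithelial sodium channel family that open when protons bind outside the cell, and they assemble from 3 subunits that can be of different kinds. Piezo channels open directly when the membrane is stretched or indented. Piezo2 is the main channel of touch and body position sense in sensory neurons of the ganglia, while Piezo1 is known best from blood vessels and red blood cells. The TMEM63 proteins are relatives of the plant OSCA channels and respond to osmotic and mechanical stress. Tmem120a (TACAN) and Tmem150c (tentonin 3) were each proposed to take part in mechanically activated currents, and whether they form channels themselves is disputed.

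Total counts were between 52309273 and 62625441 in CreER-positive libraries and between 40237131 and 63332040 in CreER-negative libraries. All 10 pan-neuronal markers were detected, with a summed level of 9179 to 12118 CPM (counts-per-million, scaled with TMM factors) in CreER-positive and 9453 to 10793 CPM in CreER-negative libraries. Scn9a itself had 620, 565 and 574 CPM in CreER-positive replicates 1 to 3, against 635, 611 and 557 CPM in CreER-negative replicates 1 to 3. These ranges overlapped. It averaged 586 ± 29.6 CPM in CreER-positive and 601 ± 39.9 CPM in CreER-negative ganglia (SD, n = 3 each). The count is for the whole gene, including its parts outside the floxed region, so it does not check the deletion. CreER-positive replicate 3 was above the other 5 libraries in its summed erythroid, macrophage, fibroblast, endothelial and satellite glia markers, while its Schwann cell, mural and skeletal muscle sums lay within their range. Its adipocyte sum was also the highest, at 6.78 CPM against at most 6.54 CPM. As a mean of log2 CPM minus the CreER-negative mean, its mural markers were at 0.20, against at most 0.07 in the other 5 libraries. Its erythroid markers were at 82.5 CPM, against 35.4 and 36.4 CPM in the other CreER-positive libraries and 32.4 to 42.9 CPM in CreER-negative libraries. Its summed macrophage markers were at 123 CPM, against 67.7 and 67.8 CPM in CreER-positive replicates 1 and 2 and 63.5 to 83.7 CPM in CreER-negative libraries. CreER-negative replicate 2 held more skeletal muscle transcripts, with a summed marker level of 117 CPM, against 67.8 to 69.6 CPM in CreER-positive libraries and 55.3 and 69.2 CPM in the other CreER-negative libraries. This sum includes Pvalb, which is also a listed marker of proprioceptors, the neurons of body position sense. As a mean of log2 CPM minus the CreER-negative mean, the muscle markers were at 1.78 in that library, against -1.04 to -0.43 in the other 5 libraries.

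None of the 10 genes differed between the groups at an edgeR adjusted p of 0.05, against 0.726% of all tested genes (0.163% higher and 0.563% lower in CreER-positive ganglia). DESeq2 called 1 of them, Asic2, against 2.28% of the genes to which it gave an adjusted p, and limma-voom called 0, against 0.721%. At an unadjusted edgeR p under 0.05 there was again 1, Asic2, which is 10% of the members against 10.6% of all tested genes. Separate CPM ranges in the groups were seen for Asic2 alone, again 10%, against 15.9% of all tested genes in either direction and 6.63% with the higher range in CreER-positive ganglia. Estimates were positive for 5 of the 10 and negative for 5, and the median log2 fold change (CreER-positive over CreER-negative) was 0.01, against 0.00 over all tested genes. In these bulk libraries, fewer cells of a type and less RNA per cell cannot be told apart.

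**Figure D1:**
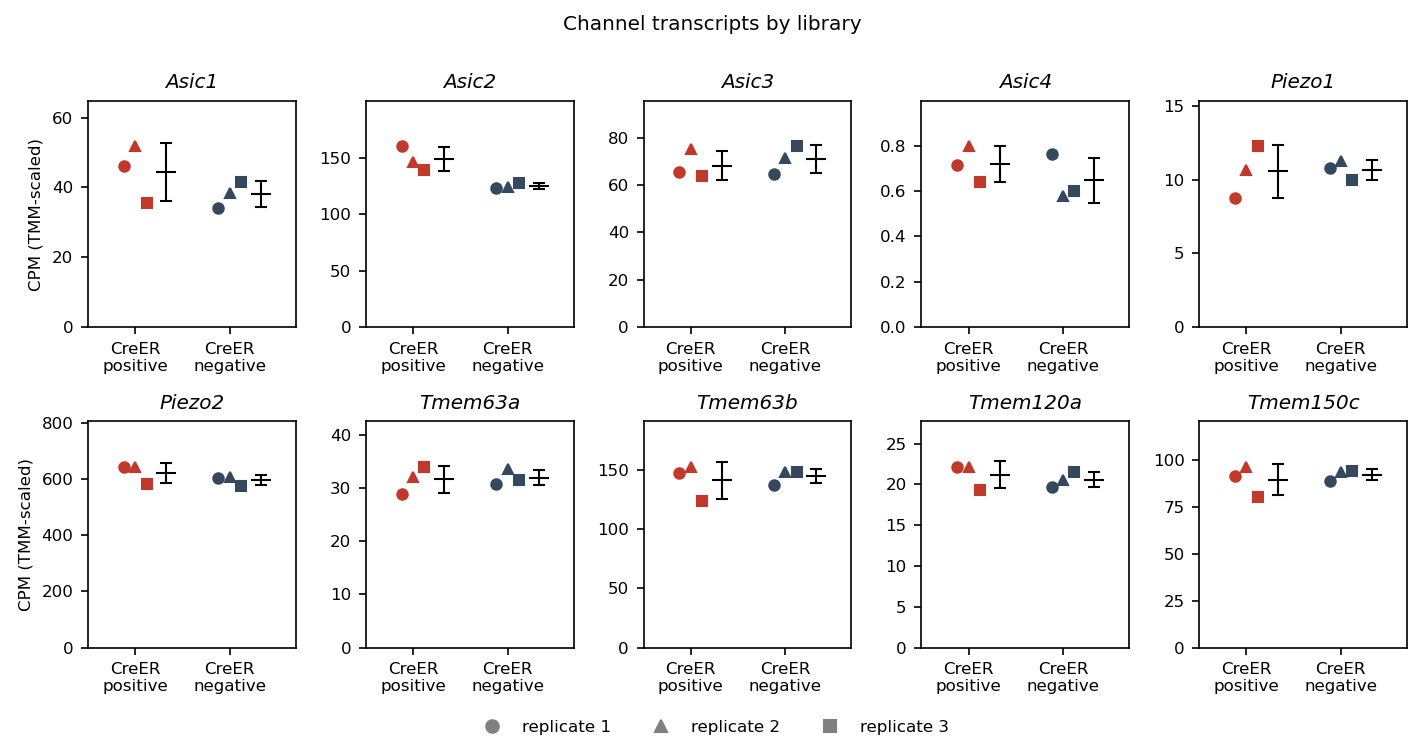
TMM-scaled CPM (vertical axes, each starting at 0) of the 10 genes in each library, CreER-positive to the left and CreER-negative to the right, with the mean and SD of each group (n = 3) beside the points and 1 symbol for each replicate. A shared symbol does not pair mice across the groups. Only for Asic2 do all 3 CreER-positive libraries, at 139 to 160 CPM, lie above all 3 CreER-negative libraries, at 123 to 127 CPM.

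Asic2 encodes a subunit that joins ASIC1 and ASIC3 in mixed channels and modifies how they respond to acid. The gene lies on chromosome 11 from 80880163 to 81968396 in GRCm38 and is the longest of the members, and RefSeq gives it 2 transcription starts 815493 bases apart. The 2 starts belong to transcripts with different first exons, which are known to give ASIC2 subunits with different amino ends. The upstream sequence of each start is shown because the gene-level count adds the transcripts of both. The sequences are from RefSeq (GRCm38.p6), run 5′ to 3′ over the 250 bases before the start on the minus strand, and have CG dinucleotides in capitals.
Asic2 start at the gene's 5′ end, chr11:81968397-81968646: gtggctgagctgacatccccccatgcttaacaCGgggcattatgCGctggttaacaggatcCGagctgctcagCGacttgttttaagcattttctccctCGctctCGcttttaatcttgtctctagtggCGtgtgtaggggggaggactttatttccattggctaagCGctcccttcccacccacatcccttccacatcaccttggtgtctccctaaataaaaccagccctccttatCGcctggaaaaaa
Asic2 internal start, chr11:81152904-81153153: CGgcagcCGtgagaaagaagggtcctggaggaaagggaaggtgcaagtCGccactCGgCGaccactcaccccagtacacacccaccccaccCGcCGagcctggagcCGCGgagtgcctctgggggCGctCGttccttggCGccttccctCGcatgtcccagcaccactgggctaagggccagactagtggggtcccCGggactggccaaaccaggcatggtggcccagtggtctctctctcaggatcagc
Each capital pair marks the motif CG, which reads the same on both strands. There were 9 in the first sequence and 14 in the second, against a median of 6 in the 32851 RefSeq windows of the same length, of which 92.1% held at least 1. Neither holds the motif TATAAA on either strand, which 12.4% of all windows do. This says only that these letters are not in these windows.

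Asic2 had 160, 146 and 139 CPM in CreER-positive replicates 1 to 3, against 123, 124 and 127 CPM in CreER-negative replicates 1 to 3. All 3 CreER-positive libraries were above all CreER-negative ones, and the lowest of them was replicate 3. The mean was 148 ± 10.6 CPM in CreER-positive and 125 ± 2.29 CPM in CreER-negative ganglia (SD, n = 3 each), resting on raw counts of 4998 to 9593 per library. The log2 fold change was 0.25 ± 0.06 (SE), which is 18.7% higher in CreER-positive ganglia with a 95% interval from 7.86% to 30.7% that is not adjusted for the number of genes. The unadjusted edgeR p was 0.00279 and the adjusted p over all genes 0.153. DESeq2 gave an adjusted p of 0.0290 for nearly the same estimate (0.25), and limma-voom gave 0.176. Without CreER-positive replicate 3 the edgeR adjusted p was 0.0255 with a log2 fold change of 0.29, and in that fit 2.53% of all tested genes were called, 1.48% as higher. Without any other single library it lay between 0.243 and 0.545, and the estimate between 0.19 and 0.27. An exact two-sided permutation test over the libraries gave p = 0.1, the smallest that 3 against 3 allow, and between 0.3 and 1 for the other 9 genes.

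Asic2 shares part of its span with other listed genes. Of 4 such genes, Gm11419, a long noncoding RNA gene that overlaps the 5′ end of Asic2 by 172 bases, had the highest count, 15.2% to 18.4% of the Asic2 count. It averaged 24.7 CPM in CreER-positive and 22.1 CPM in CreER-negative ganglia (log2 fold change 0.16, edgeR adjusted p 0.480). Because no strand setting is known, reads in the shared bases cannot be assigned to 1 gene.

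Asic1, whose product forms acid-gated channels by itself and, in one splice form, also lets calcium pass, had 46.1, 51.8 and 35.4 CPM in CreER-positive replicates 1 to 3, against 34.1, 38.5 and 41.7 CPM in CreER-negative replicates 1 to 3. CreER-positive replicates 1 and 2 were above every CreER-negative library, and CreER-positive replicate 3 lay among the CreER-negative ones. The mean was 44.4 ± 8.30 CPM in CreER-positive and 38.1 ± 3.79 CPM in CreER-negative ganglia (SD, n = 3 each), and the log2 fold change of 0.22 ± 0.13 (SE) had an interval from -0.06 to 0.51 and an edgeR adjusted p of 0.610. It was 0.36 without CreER-positive replicate 3, with an adjusted p of 0.0610, and 0.10 without CreER-positive replicate 2, with an adjusted p of 0.907. The gene lies on chromosome 15 from 99670197 to 99701130.

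Asic3, the subunit most closely tied to acid-evoked pain and to muscle and joint afferents in rodents, had 65.4, 75.1 and 63.8 CPM in CreER-positive replicates 1 to 3, against 64.7, 71.6 and 76.4 CPM in CreER-negative replicates 1 to 3. The groups overlapped over most of their range. The mean was 68.1 ± 6.09 CPM in CreER-positive and 70.9 ± 5.88 CPM in CreER-negative ganglia (SD, n = 3 each), and the log2 fold change was -0.06 with an interval from -0.24 to 0.12 (edgeR adjusted p 0.863). As a change in CreER-positive ganglia that interval runs from -15.3% to 8.83%. Asic3 (chromosome 5, 24413451 to 24417840) lies wholly within the annotated span of Cdk5, a kinase gene, which had 189 CPM in CreER-positive and 182 CPM in CreER-negative ganglia (log2 fold change 0.06, edgeR adjusted p 0.825). How the authors' counting split reads between the 2 genes is not given in the sources used here.

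Asic4, whose product does not open to protons by itself, was the member with the fewest reads, with 43, 49 and 34 counts in CreER-positive replicates 1 to 3 and 31, 32 and 38 counts in CreER-negative replicates 1 to 3. At this depth its interval was the widest of the 10, from -0.28 to 0.63 around a log2 fold change of 0.18 (edgeR adjusted p 0.826). As a change in CreER-positive ganglia this interval runs from -17.5% to 54.9%. Asic4 lies on chromosome 1 from 75450510 to 75474340.

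Piezo2 was the most abundant member in CPM, above 99.4% of the tested genes. It had 643, 646 and 582 CPM in CreER-positive replicates 1 to 3, against 606, 607 and 577 CPM in CreER-negative replicates 1 to 3. CreER-positive replicates 1 and 2 were above all CreER-negative libraries, and CreER-positive replicate 3 was below CreER-negative replicates 1 and 2. The mean was 624 ± 36.2 CPM in CreER-positive and 597 ± 17.1 CPM in CreER-negative ganglia (SD, n = 3 each). The log2 fold change was 0.06 ± 0.07 (SE), an estimate 4.52% higher in CreER-positive ganglia with a 95% interval from -6.58% to 16.9% (edgeR adjusted p 0.825). Raw counts of 24632 to 39672 lie behind it, and the gene lies on chromosome 18 from 63010213 to 63387716. It shares 14605 bases with the listed gene Gm36651, which had 42.8 CPM in CreER-positive and 42.4 CPM in CreER-negative ganglia.

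Piezo2 marks several kinds of touch and position-sensing neurons, and the marker lists of these kinds stood at different levels in the same libraries. Of 6 markers of C-fibre low-threshold mechanoreceptors, the unmyelinated touch neurons, 4 were called lower, against 0.563% of all tested genes. The summed level of the 6 was 205 to 242 CPM in CreER-positive libraries, against 306 to 313 CPM in CreER-negative libraries. Among them Slc17a8, the vesicular glutamate transporter VGLUT3, fell to 10.1 ± 2.40 CPM in CreER-positive ganglia, against 26.3 ± 1.55 CPM in CreER-negative ganglia (SD, n = 3 each), with an edgeR adjusted p of 0.00337. Cdh9, a cadherin gene of the same list, had the opposite sign, with 25.6 CPM in CreER-positive and 20.1 CPM in CreER-negative ganglia (log2 fold change 0.35, edgeR adjusted p 0.263). Of 8 markers of A-fibre touch neurons and 7 of proprioceptors none was called, against 0.726% of all tested genes, a share at which lists this short would seldom hold a called gene. The summed A-fibre markers were at 1900 to 2555 CPM in CreER-positive and 1998 to 2265 CPM in CreER-negative libraries. The summed proprioceptor markers were at 318 to 330 CPM in CreER-positive and 292 to 322 CPM in CreER-negative libraries. A positive estimate was found for 2 of the 8 A-fibre markers and 4 of the 7 proprioceptor markers, against 50.8% of all tested genes. The median log2 fold change was -0.11 for the A-fibre list and 0.09 for the proprioceptor list. Of 7 markers of non-peptidergic nociceptors 2 were called, against 0.726% of all tested genes, and 2 had a positive estimate. Their sum was 1099 to 1261 CPM in CreER-positive and 1394 to 1415 CPM in CreER-negative libraries. Among them Mrgprd had 59.8 CPM in CreER-positive and 139 CPM in CreER-negative ganglia (edgeR adjusted p 0.000249). All 6 peptidergic nociceptor markers had a positive estimate, against 50.8% of all tested genes, and none was called. The part of these lists in the Piezo2 level was not tested.

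Piezo1 had 8.72, 10.7 and 12.3 CPM in CreER-positive replicates 1 to 3, against 10.8, 11.3 and 9.95 CPM in CreER-negative replicates 1 to 3. CreER-positive replicate 3 was the highest of the 6 libraries and CreER-positive replicate 1 the lowest, so the CreER-negative values lay within the CreER-positive range. The mean was 10.6 ± 1.77 CPM in CreER-positive and 10.7 ± 0.674 CPM in CreER-negative ganglia (SD, n = 3 each), and the log2 fold change was -0.02 with an interval from -0.29 to 0.25 (edgeR adjusted p 0.979). The summed endothelial markers were likewise highest in CreER-positive replicate 3 at 187 CPM, and lowest in CreER-positive replicate 1 at 117 CPM, with 140 CPM in CreER-positive replicate 2 and 123 to 139 CPM in CreER-negative libraries. All 8 endothelial markers had their highest level in CreER-positive replicate 3, and none of the 8 was at 0. None was called between groups, against 0.726% of all tested genes. The part of these cells in the Piezo1 values was not tested. Piezo1 (chromosome 8, 122481698 to 122551329) overlaps the end of Ctu2 by 1395 bases, and Ctu2 had 16.5 CPM in CreER-positive and 16.1 CPM in CreER-negative ganglia. The Ctu2 count was 136% to 180% of the Piezo1 count. With no strand setting known, reads in the shared bases cannot be assigned to 1 gene.

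**Figure D2:**
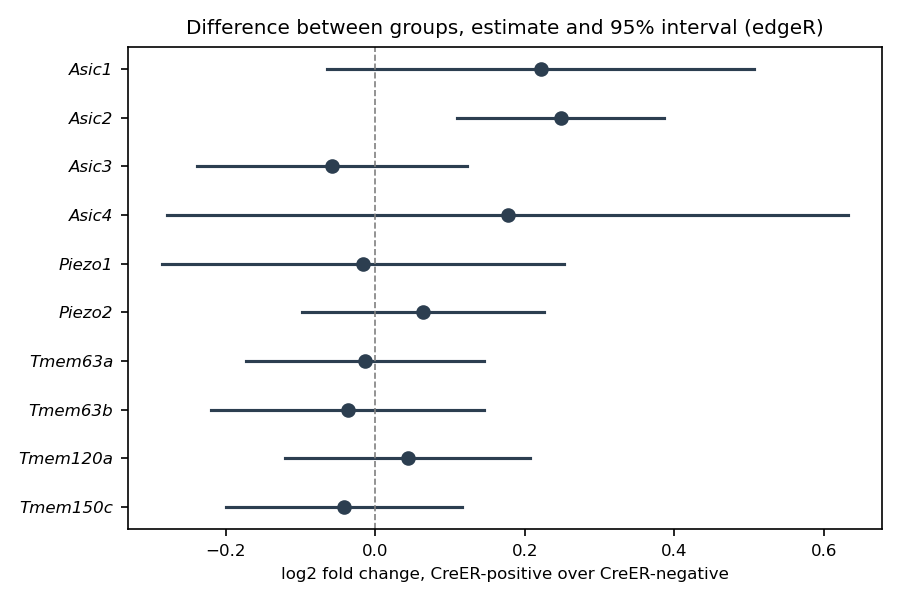
Log2 fold change of each gene, CreER-positive over CreER-negative (horizontal axis), with its 95% interval from the edgeR fit over 3 and 3 libraries. The interval of Asic2, from 0.11 to 0.39, is the single one that leaves out 0 before adjustment over all genes, and that of Asic4 is the widest.

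The 4 remaining genes had estimates within 0.05 of 0 on the log2 scale. Tmem63a, variants of which are linked to a disorder of brain myelin in humans, had 28.9, 32.0 and 34.1 CPM in CreER-positive replicates 1 to 3, against 30.8, 33.6 and 31.5 CPM in CreER-negative replicates 1 to 3. Its log2 fold change was -0.01 with an interval from -0.17 to 0.15 (edgeR adjusted p 0.970), and the gene lies on chromosome 1 from 180942286 to 180975106. As for Piezo1, CreER-positive replicate 1 was the lowest and replicate 3 the highest of the 6 libraries. Tmem63b, a close relative with a broad expression, had 147, 153 and 123 CPM in CreER-positive replicates 1 to 3, against 137, 148 and 148 CPM in CreER-negative replicates 1 to 3. The low value of CreER-positive replicate 3 was the lowest of all 6, and the log2 fold change for this gene (chromosome 17, 45660172 to 45686343) was -0.04 with an interval from -0.22 to 0.14 (edgeR adjusted p 0.920). Tmem63b shares 622 bases with Mrpl14, whose count was 11.3% to 15.1% of the Tmem63b count.

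Tmem120a, proposed as a mechanically activated channel of nociceptors and later found to have the fold of a lipid enzyme, had 22.1, 22.2 and 19.3 CPM in CreER-positive replicates 1 to 3, against 19.7, 20.5 and 21.5 CPM in CreER-negative replicates 1 to 3. Both ends of the range were CreER-positive libraries. The gene lies on chromosome 5 from 135735490 to 135744172. The log2 fold change was 0.04 with an interval from -0.12 to 0.21 (edgeR adjusted p 0.888). Tmem150c, which was linked to slowly adapting currents of muscle spindle afferents, had 91.6, 96.6 and 80.6 CPM in CreER-positive replicates 1 to 3, against 88.9, 93.5 and 94.2 CPM in CreER-negative replicates 1 to 3. The groups overlapped, and the gene lies on chromosome 5 from 100077872 to 100165607. Its log2 fold change was -0.04 with an interval from -0.20 to 0.12 (edgeR adjusted p 0.888). The listed antisense gene Tmem150cos, which lies over 19.7% of the span of Tmem150c, had 93.3% to 94.7% as many counts as Tmem150c in every library. With no strand setting known, the reads of the 2 genes in their shared part cannot be told apart.

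The order of the CreER-positive libraries was shared by most of the 10 genes. Of the 3 CreER-positive libraries, replicate 3 had the lowest CPM for 8 of the 10 genes (80%), against 38.3% of all tested genes, and the highest for the other 2, Piezo1 and Tmem63a (20%), against 41.1%. In the same library the pan-neuronal markers had the lowest summed level of the 6, 9179 CPM. On average the 10 pan-neuronal markers were 0.11 lower there on the log2 scale than the CreER-negative mean, and 0.11 and 0.17 higher in CreER-positive replicates 1 and 2, and 5 of the 10 had their lowest level of all 6 libraries in replicate 3. The A-fibre touch neuron markers had a mean deviation of -0.23 in replicate 3, with 7 of 8 at their lowest level there, against 0.00 and 0.07 in CreER-positive replicates 1 and 2. The mean deviation of endothelial markers in replicate 3 was 0.51, that of fibroblast markers 0.64 and that of macrophage markers 0.75. Whether these transcripts set the order of the channel genes was not tested. Estimates were positive for 7 of the 10 genes without CreER-positive replicate 3 (median log2 fold change 0.08), and also for 7 without CreER-positive replicate 1 (0.05) and without CreER-negative replicate 2 (0.03). They were positive for 6 without CreER-negative replicate 3 (0.02). Without CreER-positive replicate 2 (-0.007) or CreER-negative replicate 1 (0.003) they were positive for 5, as with all 6 libraries.

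**Figure D3:**
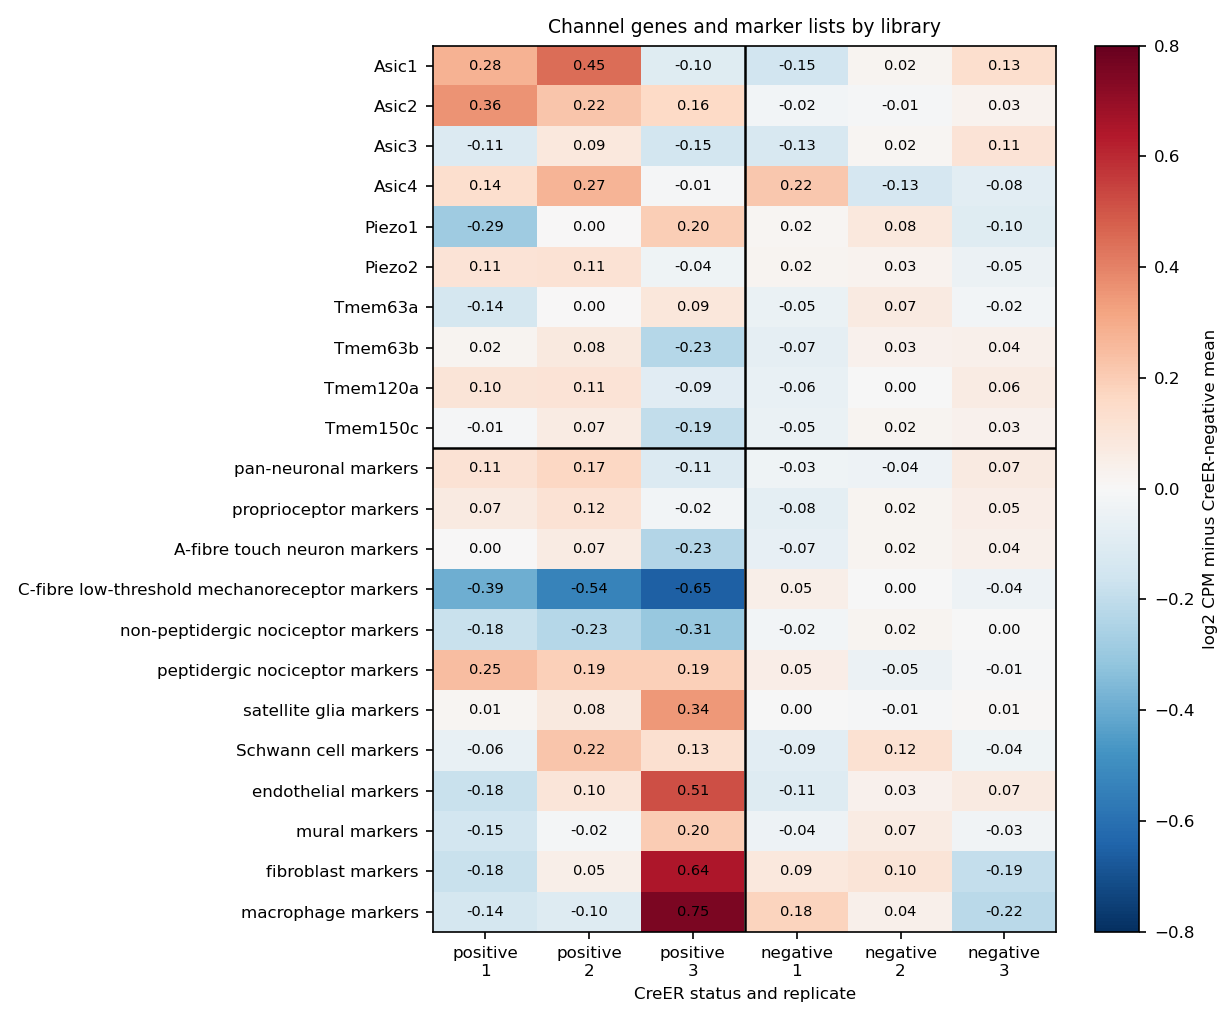
Log2 CPM minus the mean of the CreER-negative libraries (colour and printed value) for the 10 genes, above the line, and for the mean of each marker list, below it, with CreER-positive libraries in the left 3 columns and CreER-negative libraries in the right 3. Asic2 is positive in all 3 CreER-positive libraries, most channel genes are lowest of these in replicate 3, and Piezo1 and Tmem63a are highest there together with endothelial, fibroblast and macrophage markers.

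Leaving out 1 library at a time moved Asic1 and Piezo1 more than Piezo2. For Piezo2 the 6 estimates lay between 0.04 and 0.11, and for Piezo1 between -0.14 and 0.11. For Asic1 they lay between 0.10 and 0.36. The lowest and the highest for Asic1 came from leaving out CreER-positive replicates 2 and 3.

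**Figure D4:**
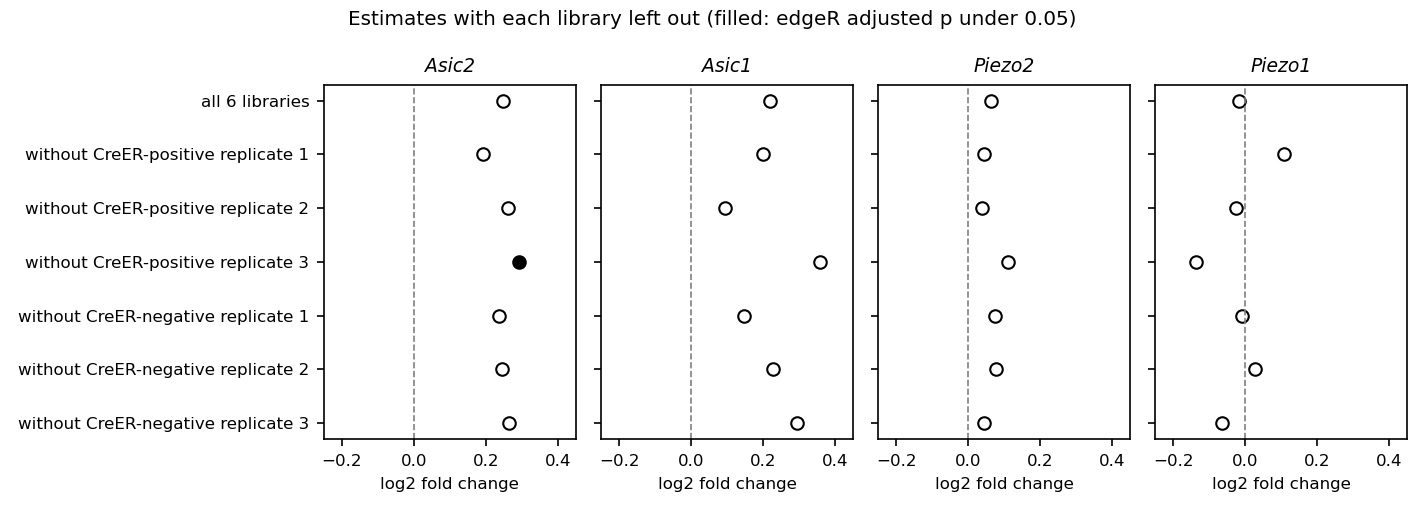
Log2 fold change (CreER-positive over CreER-negative, horizontal axes) of Asic2, Asic1, Piezo2 and Piezo1 with all 6 libraries and with each library left out in turn, filled where the edgeR adjusted p over all genes was under 0.05. The single filled point is Asic2 without CreER-positive replicate 3, at 0.29 and an adjusted p of 0.0255.

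Levels of different genes can be compared per length, and the order depended on which length was used. The deposited widths of the 10 genes are close to the full gene span, introns included, from 99.7% to 103% of it for 9 genes and 122% for Asic3. Per kilobase of annotated exons (GENCODE M21), Piezo2 stood at 35.6 ± 1.71 CPM per kb, Asic2 at 32.0 ± 3.41, Asic3 at 28.7 ± 2.30 and Tmem63b at 28.0 ± 2.12 CPM per kb (SD over the 6 libraries). Neighbours among these 4 overlapped in the range of their libraries, so their order is not fixed beyond the spread. Tmem150c followed at 16.4 and Tmem120a at 12.1 CPM per kb, without overlap. Asic1 at 7.19 and Tmem63a at 7.08 CPM per kb overlapped each other, and Piezo1 at 1.07 and Asic4 at 0.250 CPM per kb were the lowest, without overlap.

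Per kilobase of the deposited width, Asic3 was the highest at 13.0 ± 1.04 CPM per kb, ahead of Tmem63b at 5.47, Tmem120a at 2.40 and Piezo2 at 1.62 CPM per kb. Asic2, whose width is 255 times its exon length, came next to last at 0.126 CPM per kb, beside Piezo1 at 0.152, and the ranges of these 2 overlapped. Asic4 was the lowest by either length. The share of a gene's reads that comes from introns is not known here, so neither scale gives the level of the mature transcript. How reads were split with overlapping genes, such as Cdk5 for Asic3 and Tmem150cos for Tmem150c, is also not known, and the order may depend on it.

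**Figure D5:**
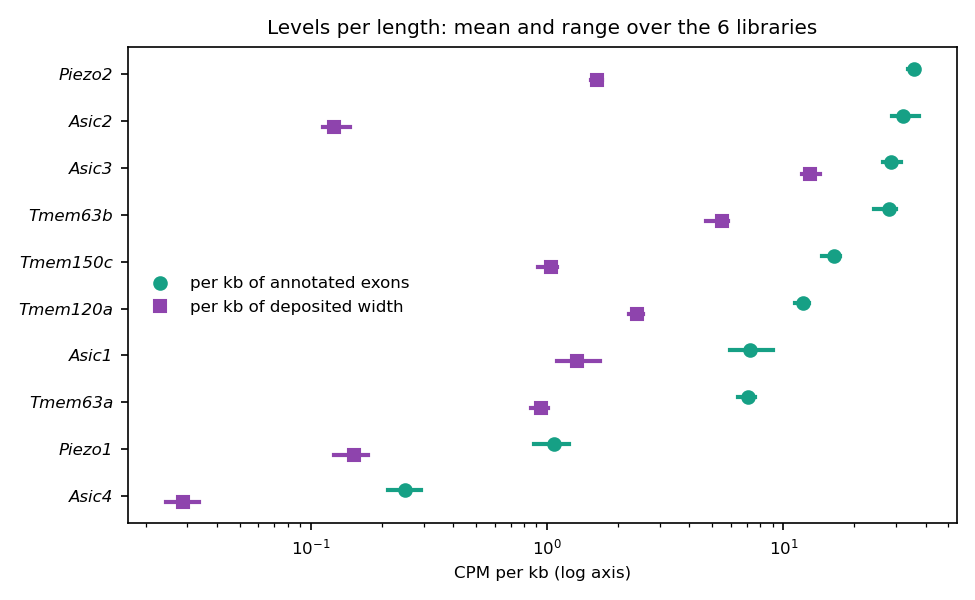
Mean level (points) and range over the 6 libraries (bars) of each gene in CPM per kb on a log axis, per kb of annotated exons (circles) and per kb of the width in the deposited files (squares). Piezo2, Asic2, Asic3 and Tmem63b lead by exon length between 28.0 and 35.6 CPM per kb, while Asic2 drops to 0.126 CPM per kb by deposited width.

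Other genes of proton and force sensing were taken from 5 lists, and none of the 40 different genes tested from these lists was called by edgeR, against 0.726% of all tested genes. Of the relatives of the ASIC genes, the epithelial sodium channel subunit genes Scnn1a and Scnn1g were both below 1 CPM in every library. Scnn1a averaged 0.828 CPM in CreER-positive and 0.724 CPM in CreER-negative ganglia (log2 fold change 0.16, edgeR adjusted p 0.865). Scnn1g averaged 0.753 CPM in CreER-positive and 0.687 CPM in CreER-negative ganglia (log2 fold change 0.14, edgeR adjusted p 0.867). Asic5 and Scnn1b had at most 2 and 14 counts per library and did not pass the filter on low counts.

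Of 12 genes for other acid sensors, 3 had an unadjusted p under 0.05, which is 25% against 10.6% of all tested genes. The otopetrin gene Otop2, which encodes a proton channel, had 6.10, 8.19 and 6.13 CPM in CreER-positive replicates 1 to 3, against 3.44, 3.68 and 4.73 CPM in CreER-negative replicates 1 to 3. The groups did not overlap, and the log2 fold change was 0.78 ± 0.16 (SE) with an edgeR adjusted p of 0.0724. DESeq2 gave it an adjusted p of 0.000486, and edgeR without CreER-positive replicate 3 gave 0.0340. Limma-voom gave 0.0832, edgeR without any other single library between 0.0869 and 0.331, and edgeR without CreER-positive replicate 3 and CreER-negative replicate 2 together 0.139. Its relative Otop1 had 5.52 ± 0.502 CPM in CreER-positive and 4.41 ± 0.235 CPM in CreER-negative ganglia (SD, n = 3 each; log2 fold change 0.33, edgeR adjusted p 0.293). The third was Trpv1, at 238 ± 10.7 CPM in CreER-positive and 215 ± 5.81 CPM in CreER-negative ganglia (SD, n = 3 each). Its groups did not overlap, as for 15.9% of all tested genes, and its log2 fold change was 0.15 (edgeR adjusted p 0.414). The median over the 12 genes was 0.04.

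Among 7 tested partners of ASICs, Stom, which encodes the membrane protein stomatin, had 29.9 ± 0.306 CPM in CreER-positive and 32.1 ± 1.11 CPM in CreER-negative ganglia (SD, n = 3 each; log2 fold change -0.10, edgeR adjusted p 0.561). Npff, the precursor of a peptide known to modulate ASIC currents, had 1.80 CPM in CreER-positive and 2.07 CPM in CreER-negative ganglia (log2 fold change -0.20, edgeR adjusted p 0.704). Of 8 regulators of Piezo channels, 0 had an unadjusted p under 0.05, against 10.6% of all tested genes. The smallest p values were those of the ion channel gene Trpv4, at 3.72 CPM in CreER-positive and 4.42 CPM in CreER-negative ganglia (log2 fold change -0.26, edgeR adjusted p 0.571), and of Mdfic, an auxiliary subunit of Piezo channels, at 11.5 CPM in CreER-positive and 10.1 CPM in CreER-negative ganglia (log2 fold change 0.18, edgeR adjusted p 0.767). Mdfic was at 15.0 CPM in CreER-positive replicate 3 and at 9.37 to 10.7 CPM in the other 5 libraries. Its log2 fold change was -0.06 without that library and -0.08 without CreER-negative replicate 2 as well.

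Of 12 other mechanosensitive channel genes and relatives, 2 (Tmc6 and Kcnk2) had an unadjusted edgeR p under 0.05, which is 16.7% against 10.6% of all tested genes. Separate CPM ranges in the groups were seen for 3 of the 12, Tmc6 and Kcnk2 among them, which is 25% against 15.9%. Tmc6, a gene of the transmembrane channel-like family, had 39.3, 41.8 and 43.4 CPM in CreER-positive replicates 1 to 3, against 47.8, 47.5 and 48.8 CPM in CreER-negative replicates 1 to 3. The groups did not overlap, and the log2 fold change of -0.21 ± 0.05 (SE) had an edgeR adjusted p of 0.173. It was 0.0427 without CreER-positive replicate 3, between 0.304 and 0.537 without any other single library, and 0.137 without CreER-positive replicate 3 and CreER-negative replicate 2 together. DESeq2 gave 0.112 and limma-voom 0.185. Kcnk2, which encodes the stretch-sensitive potassium channel TREK-1, had 46.2 ± 1.28 CPM in CreER-positive and 41.7 ± 1.08 CPM in CreER-negative ganglia (SD, n = 3 each; log2 fold change 0.15, edgeR adjusted p 0.320). The median over this list was -0.05.

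Among 17467 other genes averaging 1 CPM or more, those whose log2 CPM followed Piezo2 most closely over the 6 libraries were Shc1, Slc25a29 and Btbd9, with Pearson r of 0.993, 0.993 and 0.989. For Asic2 they were Kctd8 (0.994), Efl1 (0.990) and Gm11964 (0.985). With 6 libraries and this many genes, values of this size are a description of these libraries only. Kctd8 had 68.3 CPM in CreER-positive and 57.5 CPM in CreER-negative ganglia, a log2 fold change of 0.25 close to that of Asic2 (edgeR adjusted p 0.139).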

How the data were processed

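RNA of dorsal root ganglia was sequenced from 3 CreER-positive and 3 CreER-negative mice. Reads were aligned with GSNAP to GRCm38 (mm10), per the submitters' processing notes. The program, annotation and strandedness of counting were not given in the sources used here. Each deposited table, per the file headers, holds a raw count, a width and an RPKM value for 36528 NCBI gene identifiers. The deposited RPKM is the authors' count per kilobase of width, scaled to a library total that the sum of counts exceeds by 1.46% to 2.17%, and was not tested. Of the identifiers, 31049 matched a RefSeq symbol (GRCm38.p6), and 77.7% of matched widths lay within 5% of the gene span. Replicates did not agree within sampling noise, with a chi-square divided by its degrees of freedom of 35.2 to 43.6 for CreER-positive pairs and 5.87 to 8.87 for CreER-negative pairs. CreER-positive replicates 1 and 2 gave 35.2, so replicate 3 alone does not set that range.

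Genes were filtered with filterByExpr and scaled with TMM factors. Differences were tested with edgeR's quasi-likelihood method (edgeR 4.0.16, R 4.3.3, version 4 settings), Benjamini-Hochberg adjusted over 22043 genes at 0.05. The SE is the log2 fold change divided by the square root of F, and intervals are 95%. The common biological coefficient of variation was 8.99%. DESeq2 1.42.0 and limma-voom (limma 3.58.1) were alternatives. The procedure was also run on simulated data that gave both groups the same spread for each gene. That run does not test it under the unequal spread of the replicates given above. Marker deviations used log2 of CPM plus 0.1. Figures were drawn with matplotlib 3.10.9.

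The members, lists and alternatives were chosen with earlier results of these data known. Named were all 10 members, in each pathway list any called gene or else the 2 with the smallest p, the 3 genes most like Piezo2 and the member with the smallest p, and Scn9a. Slc17a8, Cdh9, Mrgprd, Trpv1, the levels of the nociceptor lists, Mdfic by library, overlapping genes and genes under the count filter were added after their values were seen. The legacy edgeR settings were added after seeing the data.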

Additional observations from a re-analysis of the deposited data

How the results depend on the processing

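Over the 16 alternatives, no estimate of Asic1, Asic2, Piezo2 or Tmem120a changed sign, nor did that of Asic4 in the 15 that kept it. Asic2 was called by DESeq2 (0.25) and without CreER-positive replicate 3 (0.29), so that the number of members called was 1 in those settings and 0 in the other 14. Over all genes the share called was 2.28% by DESeq2 and 2.53% without CreER-positive replicate 3. With 1 library left out, estimates lay between 0.19 and 0.29 for Asic2, 0.10 and 0.36 for Asic1, -0.13 and 0.0019 for Asic3, -0.14 and 0.11 for Piezo1, -0.069 and 0.049 for Tmem63a, -0.10 and 0.05 for Tmem63b and -0.10 and 0.03 for Tmem150c. Without CreER-negative replicate 2 and CreER-positive replicate 3 together, Tmem63b (0.068) and Tmem150c (0.039) were positive and Asic2 (0.29) was not called (adjusted p 0.111). For these genes the cause was not tested.

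The count of all called genes was 421 by DESeq2, 108 without both of those libraries and between 60 and 568 with 1 library left out, against 160. Of the 12 other acid sensors, 1 gene (Otop2) was called by DESeq2 and without CreER-positive replicate 3. Of the 12 other mechanosensitive channels, 1 (Tmc6) was called without CreER-positive replicate 3. The shares over all genes were 2.28% by DESeq2 and 2.53% without CreER-positive replicate 3. With 1 library left out, the number called in each of these 2 lists lay between 0 and 1. Per kb of exons, levels became 7.19 (Asic1), 32.0 (Asic2), 28.7 (Asic3), 0.250 (Asic4), 1.07 (Piezo1), 35.6 (Piezo2), 7.08 (Tmem63a), 28.0 (Tmem63b), 12.1 (Tmem120a) and 16.4 (Tmem150c) CPM, by the shorter length alone.

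No paired analysis was possible because nothing in the labels pairs the animals, and any likeness among littermates was left out of the fit. The labels give no replicate numbers either, and those used here only follow the order of the deposited libraries. Depth limited Asic4 most, with 31 to 49 counts per library.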
